A study of Caenorhabditis elegans with 3 samples.

Results

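The histone genes of Caenorhabditis elegans were examined for peaks of the zinc finger protein BED-3 in embryos. The set holds every coding gene with a symbol that starts with his-, the hil- linker histone genes, and the variant genes htz-1 and htas-1. This gave 82 of the 19985 coding genes of the WBcel235 annotation, and the other 19903 coding genes served as the background. The 82 genes comprised 65 core histone genes that lie within 5000 bp of another core gene, 1 solitary core gene (his-73), 7 variant genes and 9 linker genes. The 65 clustered genes fell into 13 clusters.

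The data are peak lists from chromatin immunoprecipitation followed by sequencing (ChIP-seq), made with an antibody against GFP. All samples came from strain OP651, which carries the unc-119(tm4063) allele and the transgene wgIs651, holding bed-3::TY1::EGFP::3xFLAG and unc-119(+). They were whole embryos of mixed stage and pooled sex, collected by egg bleaching, with an age given as 4 hours. There was 1 group with 3 biological replicates, numbered 1, 3 and 4, and no untagged or input sample was analysed here, so no contrast between conditions was made. The whole-embryo material mixes all embryonic cell types.

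Histones are the proteins around which DNA is wrapped into nucleosomes. The core types H2A, H2B, H3 and H4 form the nucleosome particle, and linker histones (H1) bind where DNA enters and leaves it. In animals the core genes are present in many near-identical copies, often as divergent pairs that share 1 promoter, and are expressed mainly while DNA is replicated, as in the dividing cells of an embryo. Variant histones such as H3.3 and H2A.Z come from genes outside the clusters and can be placed into chromatin outside replication. BED-3 carries a BED-type zinc finger, a domain that binds DNA.

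A gene was counted as having a promoter peak where a peak summit lay from 1000 bp upstream to 200 bp downstream of any annotated 5′ end. The pooled list, called from all 3 replicates together, held 30000 peaks, and the lists of replicates 1, 3 and 4 held 26338, 29455 and 30000. These lists are relaxed, so their lower ranks include weak peaks, and the authors' stricter reproducible list (the optimal list) held 589. Each peak carries the authors' own signal, which ranged from 27.6 to 2000 in the pooled list and was never below 122 in the optimal list. Signals are on different scales in different lists, so across lists only ranks are set side by side, with rank 1 as the highest signal. A replicate rank is that of the highest promoter peak in that list, whose summit need not be the pooled one. A replicate summit within 100 bp of the pooled summit is called matched. For histone genes with printed replicate ranks, the text says where the highest peak is not the matched one. Read depth is unknown here.

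The sequences that follow are examples and do not show every kind of DNA under the histone peaks. The strongest histone peak, described further on, is not printed. No printed peak has its summit in a coding exon, although 11 of the 27 distinct peaks at histone genes do. The first 5 are the 101 bases centred on the pooled summit of an H3.3-type gene, a linker gene, the H2A.Z gene, a divergent core pair and a core H4 gene. The last 2 are the 101 bases in the middle of a pair of divergent core promoters that have no peak. All are on the + strand of ce11 (WBcel235), read from the RefSeq genome, and capitals mark the 8 bases GGGGACAC or their reverse complement GTGTCCCC, which are described further on.
his-72, chrIII:12368819-12368919: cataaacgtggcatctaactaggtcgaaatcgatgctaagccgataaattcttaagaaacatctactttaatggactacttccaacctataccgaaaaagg
hil-7, chrIV:6646072-6646172: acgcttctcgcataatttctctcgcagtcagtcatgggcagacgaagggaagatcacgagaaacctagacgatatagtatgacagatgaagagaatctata
htz-1, chrIV:4446070-4446170: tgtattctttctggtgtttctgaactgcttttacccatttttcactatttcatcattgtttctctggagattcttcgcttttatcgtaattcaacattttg
his-61 and his-62, chrIV:7486348-7486448: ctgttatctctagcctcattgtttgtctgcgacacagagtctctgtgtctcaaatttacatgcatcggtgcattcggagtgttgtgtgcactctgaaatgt
his-37, chrV:9546949-9547049: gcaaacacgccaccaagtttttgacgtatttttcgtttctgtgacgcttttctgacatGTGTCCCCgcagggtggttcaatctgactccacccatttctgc
his-50 and his-49, chrV:8847773-8847873: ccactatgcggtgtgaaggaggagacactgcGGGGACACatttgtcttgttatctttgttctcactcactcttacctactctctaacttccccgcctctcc
his-28 and his-27, chrV:8889868-8889968: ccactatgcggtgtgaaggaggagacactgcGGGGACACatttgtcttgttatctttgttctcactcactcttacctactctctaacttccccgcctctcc
The last 2 sequences are the same base for base although they lie in different clusters of chromosome V, and the whole 238 bp between the coding genes differs at 0 positions. The 5 sequences under peaks come from stretches that occur once in the genome, where a read can be placed.

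Of the 82 histone genes, 33 had a promoter peak in the pooled list, a share of 40.2% (exact 95% interval 29.6 to 51.7%, counting error only). The share among other coding genes was 37.5%. The interval holds the background share. The peaks that were present ranked higher than those at other genes. The 33 genes had a median signal of 62.2 and a median rank of 3748, against a median signal of 45.2 and a median rank of 10396 for the 7457 other genes with a peak. With each of the distinct peaks counted once, the medians were 51.4 and 44.4. A peak among the 10000 highest was found at 21 histone genes (25.6%), against 18.2% of other coding genes. Only 3 histone genes (3.66%) reached the lowest signal of the optimal list, against 2.09%. The counts depend on how a peak is given to a gene. With a peak counted only for the gene whose 5′ end is nearest to it, 19 histone genes (23.2%) had one, against 31.1% of other genes, so the order of the shares turned over.

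The replicate lists gave the same picture of shares near the background and ranks above it. Promoter peaks were listed at 31.7% of histone genes in replicate 1, 34.1% in replicate 3 and 36.6% in replicate 4, a mean of 34.1% ± 2.44 (SD, n = 3). The values for other coding genes were 36.3, 39.1 and 37.1%, a mean of 37.5% ± 1.46 (SD, n = 3). Histone genes with a peak had a median place in the top 8.08, 10.3 and 19.1% of the list, and other genes in the top 39.5, 40.8 and 36.5%. The histone medians were above those of other genes in each replicate. The replicates share 1 control alignment, per the deposited file listing, and its part in this was not tested. A promoter peak in every replicate list was found at 18 histone genes (22.0%), against 14.4% of other coding genes. With windows from 500 bp upstream to 100 bp downstream this count was 10 (12.2%), against 7.28% of other coding genes. With a peak counted only for the gene with the nearest 5′ end it was 7 (8.54%), against 10.5%, so here too the order turned over. When a pooled peak also had to have a summit within 100 bp in the lists of both other replicates, 12 histone genes (14.6%) had one without replicate 1, 11 (13.4%) without replicate 3 and 13 (15.9%) without replicate 4. The same filter left 9.19, 9.70 and 6.97% of other coding genes.

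In the pooled list linker and variant genes had the higher shares with a peak and clustered core genes the lowest. Among the linker genes 6 of 9 had a pooled promoter peak (66.7%, exact 95% interval 29.9 to 92.5%), with a median signal of 87.6. Among the variant genes the count was 4 of 7 (57.1%, 18.4 to 90.1%), and among the clustered core genes 22 of 65 (33.8%, 22.6 to 46.6%). These intervals overlap, and each holds the 37.5% of all other coding genes and the 39.1% of those with mostly unique promoter sequence. Genes that share a promoter are not independent. No test between classes was run. Among genes with at least 90% unique promoter sequence, a measure described further on, the order turned over. There 5 of 5 clustered core genes had a peak, against 6 of 8 linker and 4 of 6 variant genes. Of the clustered core genes under 50% unique, 3 of 41 had one. In replicates 1, 3 and 4 the linker shares were 44.4, 33.3 and 88.9%, against 36.3, 39.1 and 37.1% of other coding genes. Within the clustered core genes, 7 of 16 H4 genes, 7 of 15 H3 genes, 4 of 16 H2B genes and 4 of 17 H2A genes had a peak. The remaining clustered gene, his-39, is a short gene with no core type in its product name and had no pooled peak. The exact 95% intervals of the H4, H3, H2B and H2A shares overlap, and each holds 37.5%. Median unique shares of their promoter windows were 38.3, 37.1, 18.3 and 3.00%. In replicate 3 the order differed, with peaks at 31.2, 26.7, 25.0 and 29.4% of these genes. The part of read placement in these counts was not tested.

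**Figure D1:**
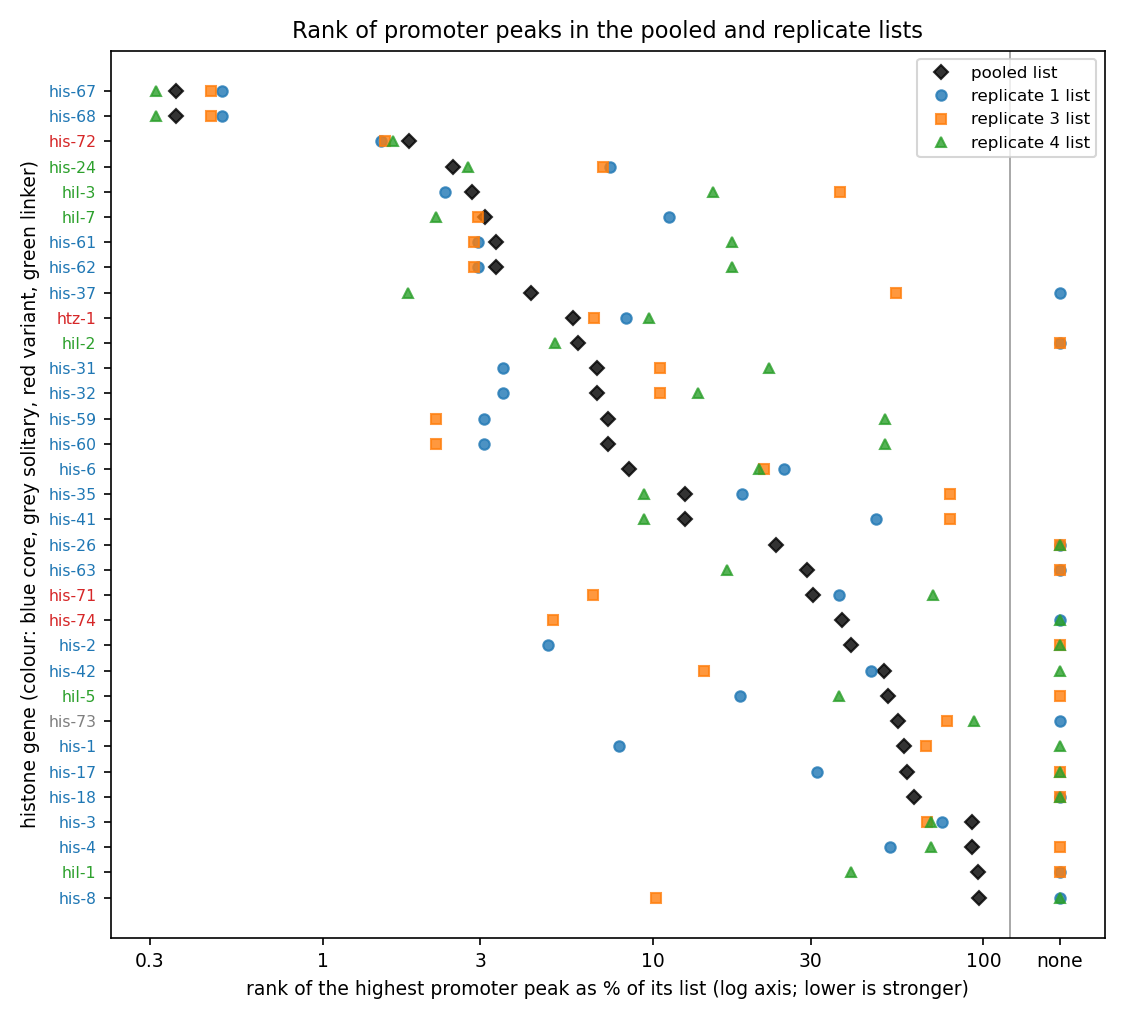
Rank of the highest promoter peak as a percent of its list (x axis, log scale, lower is stronger) for each of the 33 histone genes with a pooled peak (y axis), in the pooled list and in each replicate list, with genes lacking a peak in a list drawn in the column marked none. The divergent pair his-67 and his-68 stays between 0.313 and 0.497% in all 4 lists, while most genes lower down change rank widely between lists or are missing from one.

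The strongest histone promoter peak lay between the H4 gene his-67 and the H2A gene his-68. These divergent genes share 1 peak (ce11, chromosome I, 9988844 to 9989115) that falls entirely between them. Its pooled signal was 370, rank 108. Its rank was 131 in replicate 1, 135 in replicate 3 and 94 in replicate 4, with signals of 87.0, 71.7 and 205. These ranks are in the top 0.497, 0.458 and 0.313% of the 3 lists. The summit lay 196 bp upstream of his-67 and 173 bp upstream of his-68, and the peak is in the optimal list.

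The other optimal-list gene was his-72, which encodes an H3.3-type variant. Its peak (chromosome III, 12368641 to 12369096) had a pooled signal of 129, rank 546. The highest promoter peak had rank 394 in replicate 1, 453 in replicate 3 and 488 in replicate 4. The pooled summit was 181 bp downstream of the nearest annotated 5′ end, inside the gene but outside its coding exons. In replicate 3 the highest peak had its summit further into the gene, at 372 bp, and the matched summit had rank 2601 with a signal of 25.0. The summit at 372 bp counts because his-72 has 2 annotated 5′ ends, and it lies upstream of the other one. The 3 replicates were thus close in rank for the promoter as a whole but not for this summit.

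The remaining variant genes had lower ranks or no peak. The H2A.Z gene htz-1 had a pooled signal of 78.8, rank 1715, with ranks of 2180, 1953 and 2914 in replicates 1, 3 and 4. All 3 replicates placed it in the top 10000, but the summits lay at 5, -18 and -291 bp from the 5′ end, where negative is upstream. The pooled summit at -96 bp was matched at rank 1953 in replicate 3 and at rank 23505 in replicate 4, and not in replicate 1. The H3.3 gene his-71 had a pooled signal of 47.3 at -700 bp, and ranks of 9638, 1941 and 21119. The replicate 3 peak lay at -476 bp, so the pooled summit was matched in replicates 1 and 4 and not in replicate 3. The H3 variant gene his-74 had a pooled signal of 44.0 and a peak in replicate 3 alone, at rank 1468. For his-70 a peak was listed in replicate 3 alone, at rank 20034 and 999 bp upstream, at the very edge of the window. No list held a promoter peak at his-69 or at htas-1, an H2A variant gene known for its expression in sperm. The members of the H3.3-type group therefore ran from rank 546 to no peak.

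Among the linker genes, his-24, hil-3 and hil-7 were listed in all 3 replicates. The H1 gene his-24 had a pooled signal of 108, rank 743, with replicate ranks of 1955, 2071 and 824. Its pooled summit lay 86 bp downstream of the 5′ end, in its own coding exon. In replicate 3 the highest peak lay at -51 bp, and the matched summit was weak, at rank 28166 with a signal of 11.4. A similar place was seen at hil-3, with a pooled signal of 102, a summit 93 bp downstream and ranks of 617, 10869 and 4548. Its 3 replicate summits fell at 101, 52 and 100 bp downstream, so the place varied little while the rank varied widely. At hil-7 the pooled signal was 97.3, 190 bp upstream, and the ranks were 2962, 872 and 663. The replicate 1 peak lay at 119 bp downstream, so the pooled summit was matched in replicates 3 and 4 only.

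The remaining linker genes were less evenly listed. The gene hil-2 had a pooled signal of 77.8 with a summit 8 bp upstream of its 5′ end, yet a promoter peak was listed in replicate 4 alone. The highest peak there had rank 1514 at -105 bp, and the matched summit had rank 25074. The pooled signals of hil-5 and hil-1 were 38.8 and 28.2, which are ranks 15436 and 28975. For hil-4 and hil-8 a peak was listed in replicate 4 alone, at ranks 20944 and 20422, and hil-6 had none in any list. In all, 8 of the 9 linker genes had a peak in replicate 4, against 4 in replicate 1 and 3 in replicate 3. When the pooled summit had to be matched in both other lists, 3 linker genes were left without replicate 1, 2 without replicate 3 and 2 without replicate 4.

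**Figure D2:**
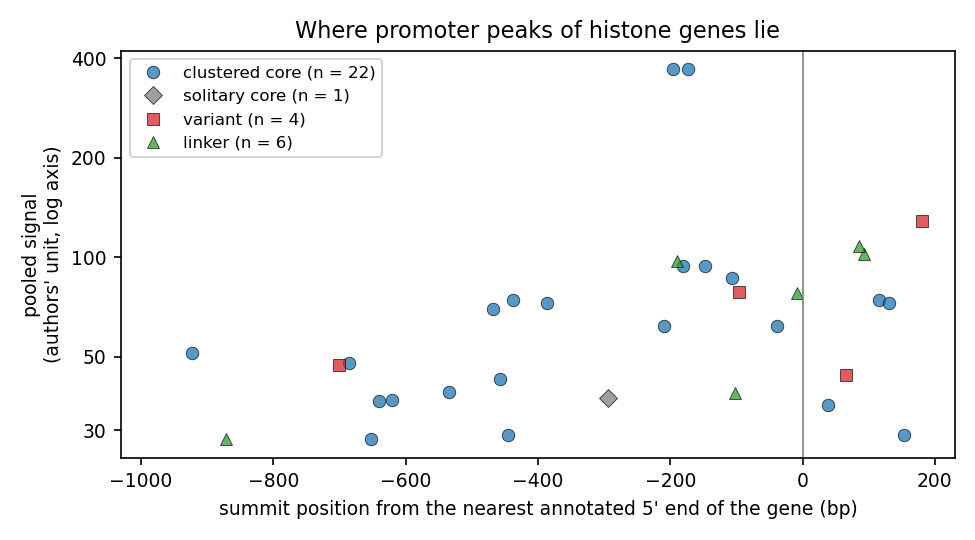
Signal of the highest pooled promoter peak (y axis, log scale) against the position of its summit relative to the annotated 5′ end (x axis, bp, negative is upstream) for the 33 histone genes with a peak, by class. The pair his-67 and his-68 stands at a signal of 370 just upstream of the 5′ ends, and the next gene, his-72, lies at 129 on the downstream side.

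Most summits at linker and variant genes lay near the 5′ end, and the median position at clustered core genes was close to that at other genes. The median position was -55.0 bp for the 6 linker genes and -15.0 bp for the 4 variant genes, against -298 bp for the 22 clustered core genes. Far from the 5′ end were hil-1 at -872 bp and his-71 at -700 bp. For 14 of the 33 histone genes with a peak, another coding gene's 5′ end was nearest to the summit. An example is his-1, with its summit at -620 bp in the coding exon of his-2, so the core median includes peaks nearer to a neighbour. Over all 33 genes the median position was -190 bp from the 5′ end (negative is upstream), against -297 bp for other coding genes with a peak. A summit within 200 bp of the 5′ end was found for 18 of the 33 genes (54.5%), against 38.1%, and for 45.5% of the clustered core genes. It lay upstream for 25 genes (75.8%), against 83.3%. Of the 27 distinct peaks at these genes, 11 had the summit in a histone coding exon and 0 in a coding exon of any other gene. The share in coding exons is not given for peaks at other genes, so this count has no background. Histone genes are short and have few introns, and 68 of the 82 have an annotated 5′ end at the first coding base, so the annotated ends need not be the true starts of transcription. The 101 bases around the summits had a median GC content of 46.5%, against 37.6% for peaks at other genes. The part of sequence composition in the peaks was not tested.

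The clustered core genes shared peaks. There were 6 peaks that each served 2 histone genes, all divergent pairs, so 12 of the 33 genes share a value with a neighbour. For 26 of the 27 peaks the nearest coding 5′ end belonged to a histone gene. The exception was his-73, whose peak lay 117 bp from the 5′ end of W09H1.4. The summit was matched within 100 bp in all 3 replicates for 6 of the 27 peaks (22.2%), against 9.66% of the 6472 distinct promoter peaks at other genes. It was matched in 2 replicates for 7 peaks, in 1 for 10 and in none for 4. Among the 10000 highest peaks the shares matched in all 3 were 37.5% of 16 and 20.5% of 3029.

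After his-67 and his-68, the strongest clustered pair was his-61 and his-62, an H2A and an H2B gene on chromosome IV. Their shared peak had a pooled signal of 94.1, rank 1004, and ranks of 779, 845 and 5193 in replicates 1, 3 and 4. The neighbouring H4 gene his-60 and H3 gene his-59 shared a second peak of signal 72.8, matched at ranks 809 and 652 in replicates 1 and 3. In replicate 4 this summit was not matched, and the highest peak at both genes was another one, at rank 15116. The H4 gene his-37 went the other way, with a pooled signal of 86.6, rank 542 in replicate 4, rank 16019 in replicate 3 and no peak in replicate 1. The divergent pair his-31 and his-32, an H4 and an H3 gene, shared a pooled signal of 74.5. For his-31 the replicate ranks were 927, 3085 and 6722. At his-32 the summit was matched at the same ranks, but the highest peak in replicate 4 was another one, at rank 4114. The H3 gene his-6 followed at 69.7, with its summit in the coding exon of its neighbour his-5 and matches at ranks 18152 and 6275 in replicates 1 and 4. Its highest peaks in replicates 1 and 3 were unmatched ones, at ranks 6556 and 6399. Then came his-35 and his-41, an H2A and an H2B gene, at 62.2. The summit of this pair was matched in replicate 4 alone, at rank 2817, and the highest peak in replicate 3 had rank 23259. In replicate 1 the highest peak had rank 4903 at his-35 and rank 12435 at his-41.

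**Figure D3:**
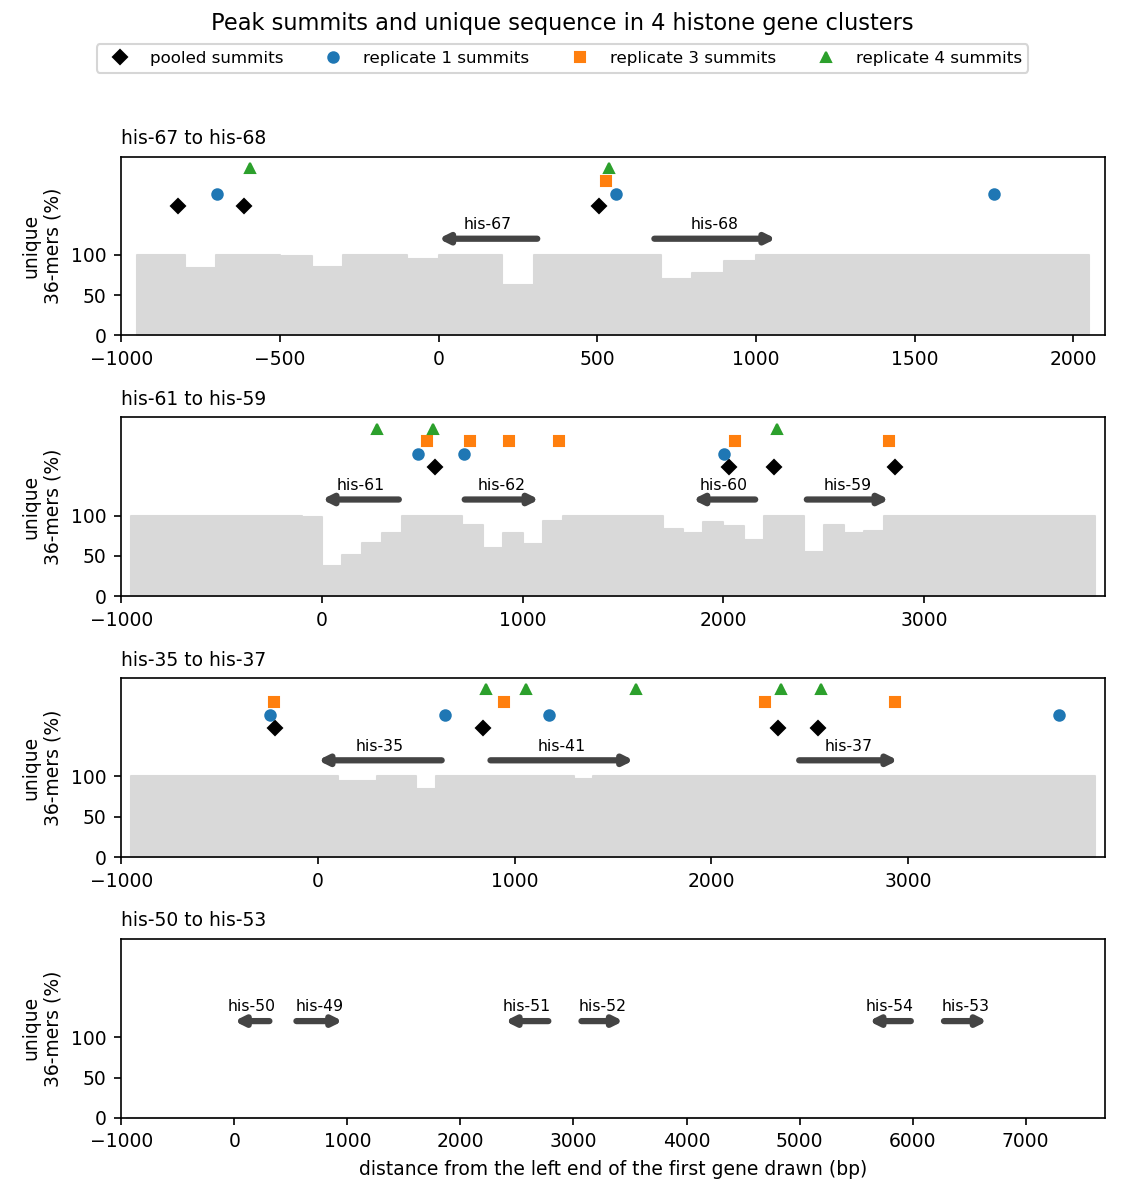
Maps of 4 histone clusters, chosen after their values were seen, with genes as arrows, peak summits of each list as symbols and the share of 36-base words found once in the genome in grey (y axis, percent, in steps of 100 bp) against distance from the left end of the first gene (x axis, bp). Summits of all 4 lists gather between his-67 and his-68 and between his-61 and his-62, whereas the stretch from his-50 to his-53 has no summit in any list and no unique sequence.

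At the other end stood clusters without any pooled promoter peak. There were 4 of these. One is the cluster of his-50, his-49, his-51, his-52, his-54 and his-53 on chromosome V, where no list held a promoter peak at any of the 6 genes. Another is the cluster of his-47, his-48, his-46 and his-45 on chromosome IV, also with none in any list. The cluster of his-55, his-56, his-58 and his-57 had 1 weak peak, at his-56 in replicate 4, rank 26787. The fourth is the pair his-38 and his-40 on the X chromosome, an H4 and an H3 gene, with none in any list. The largest cluster, 13 genes on chromosome II, had 2 genes with a pooled peak and 10 with no peak in any list. In contrast, all 4 genes from his-61 to his-59, all 4 genes his-1 to his-4 and all 3 genes his-35, his-41 and his-37 had one. The peaks at his-1 to his-4 ranked low in the pooled list, at 17213, 11939, 27700 and 27700. The summits at his-2 and at the pair his-3 and his-4 were matched in no replicate. In replicate 1 the highest peaks at his-1 and his-2 had ranks 2078 and 1270.

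A read from a repeated stretch cannot be placed at 1 copy with certainty. For each gene the share of 36-base words in its promoter window that occur once in the genome was counted on both strands. The median share was 19.9% for clustered core genes and 100% for variant, linker and other coding genes. The window of 19 clustered core genes was identical to that of another, in 9 groups, and 36 clustered core genes had a coding sequence identical to another's. The length of 36 bases is a chosen one, since neither the read length nor the treatment of reads with several matches in the authors' processing is known here.

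**Figure D4:**
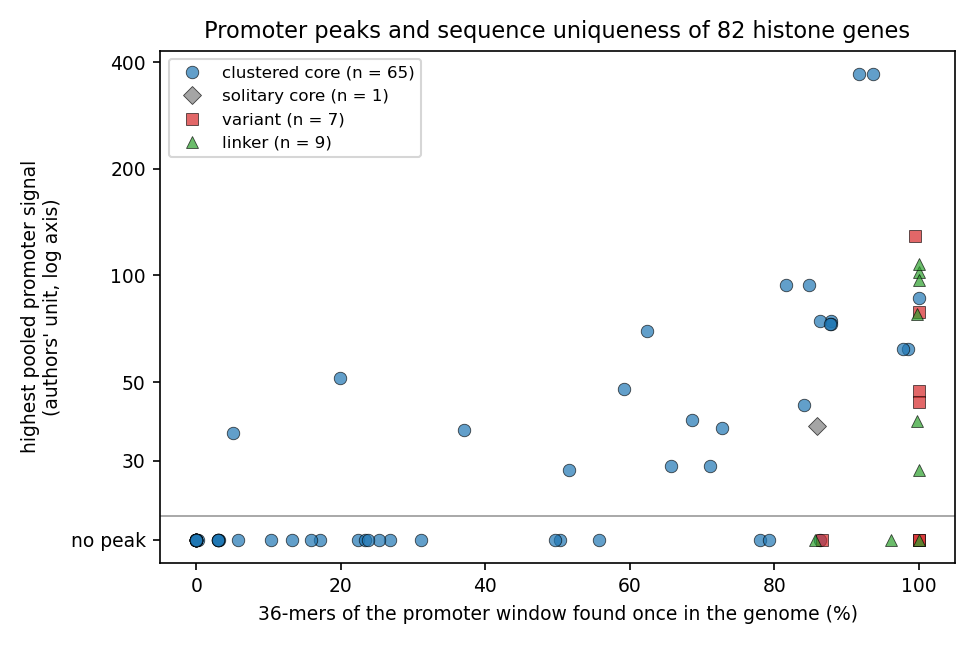
Signal of the highest pooled promoter peak (y axis, log scale) against the share of unique 36-base words in the promoter window (x axis, percent) for all 82 histone genes, by class, with genes that lack a pooled peak below the grey line. Of the 41 genes under 50% unique, 3 have a peak, and these have signals between 35.9 and 51.4.

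Most histone genes with a peak had windows that were at least 50% unique. Of the 41 genes under 50% unique, all of them clustered core genes, 3 had a pooled promoter peak (7.32%, exact 95% interval 1.54 to 19.9%), and 34 had no peak in any list. None of the 20 genes with no unique word at all had a peak in any list. Other coding genes under 50% unique were also rarely listed, with 19 of 530 (3.58%). From 50 to 90% unique, 15 of 22 histone genes had a peak (68.2%, 45.1 to 86.1%), against 32.4% of 2068 other genes. At 90% or more, 15 of 19 had one (78.9%, 54.4 to 93.9%), against 39.1% of 17305 other genes. The part of read placement in the lack of peaks at repeated copies was not tested, and a copy without a peak is not shown to lack the protein.

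Among genes with at least 90% unique windows the histone share was above the background share in each replicate. Its exact interval held the background share in replicates 1 and 3. Promoter peaks were listed at 57.9, 63.2 and 84.2% of the 19 histone genes in replicates 1, 3 and 4, a mean of 68.4% ± 13.9 (SD, n = 3). The values for other coding genes were 38.3, 41.3 and 38.7%, a mean of 39.4% ± 1.62 (SD, n = 3). The lowest histone value lay above the highest background value. The exact intervals of the histone shares were 33.5 to 79.7%, 38.4 to 83.7% and 60.4 to 96.6% in replicates 1, 3 and 4. Those of replicates 1 and 3 hold the background share of the same replicate, and that of replicate 4 does not. The intervals treat genes as independent, which genes that share a peak are not, so they test no difference. A peak among the 10000 highest of the pooled list was found at 12 of the 19 genes (63.2%), against 19.3%, and a peak in every replicate list at 10 (52.6%), against 15.3%. The 19 genes are 8 linker, 6 variant and 5 clustered core genes, and all 5 of the core genes (his-67, his-68, his-35, his-41 and his-37) had a peak. The 4 genes without a pooled peak were hil-4 and hil-8, which had one in replicate 4, and his-69 and htas-1, which had none in any list. The 5 core genes share 3 peaks, and the 90% bound was chosen with earlier results of these data known, so these shares are a description.

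**Figure D5:**
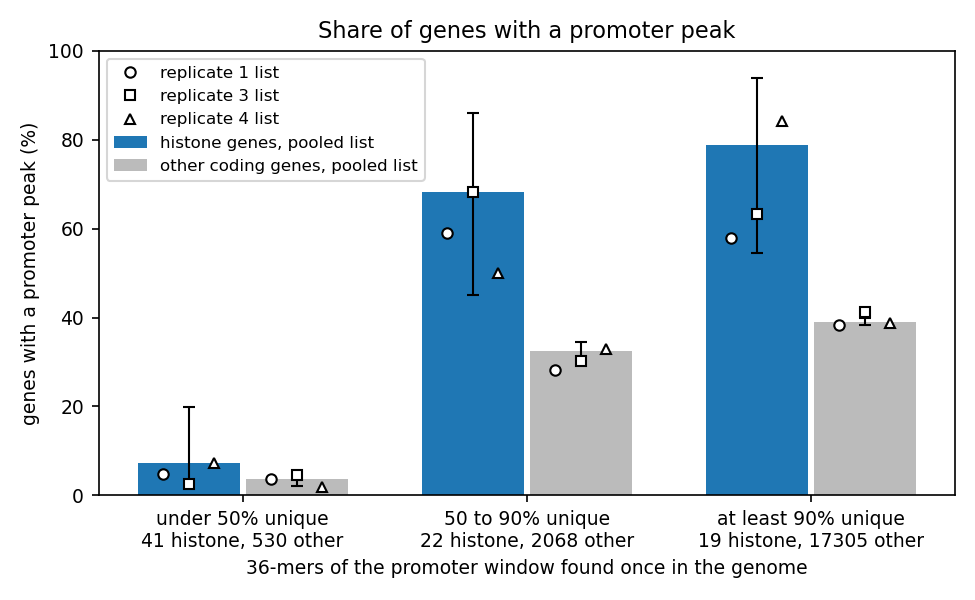
Share of genes with a promoter peak (y axis, percent) by the share of unique 36-base words in the window, for histone and other coding genes, as bars for the pooled list with exact 95% intervals and points for replicates 1, 3 and 4. Histone bars stand at 7.32, 68.2 and 78.9% and those of other genes at 3.58, 32.4 and 39.1%.

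Not every gene in unique sequence had a peak. The windows of his-38 and his-40 were 78.1 and 86.3% unique and held none. The peaks themselves also lay mostly in unique sequence. For 16 of the 27 distinct peaks at least 90% of the words within 100 bp of the summit were unique, and for 4 under 50% were. Those 4 include the peak of his-6, where the share was 8.96%.

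The promoters of clustered core genes share sequence that is rare among other coding genes, and some of it recurs at linker or variant genes. Windows from 250 bp upstream to 50 bp downstream of each 5′ end were searched on both strands. The word TATAAA was found at 44 of 65 clustered core genes (67.7%), against 37.9% of other coding genes. GAGAGA was found at 32 (49.2%), against 21.7%, and CCAAT at 33 (50.8%), against 45.5%. GCGCGC and CACGTG were found at 0 of 65, against 3.59 and 5.83%. Among 8-base words, GGGGACAC was found at 43 of the 65 genes (66.2%), against 63 of 19903 other coding genes (0.317%), 0 of the 7 variant genes and 1 of the 9 linker genes. It was chosen after its values were seen, as the word rarest elsewhere among the 10 most shared. These 43 genes are not independent, since the 65 genes have 44 distinct promoters, of which 24 hold the word. It is the word in capitals at his-37 and in the identical promoters printed above. A pooled peak was found at 13 of the 43 genes with the word and at 9 of the 22 without it. GGGACACA and ATGTGTCC were each found at 41 of the 65 genes, 5 of the 9 linker genes and 1 of the 7 variant genes. Both overlap GGGGACAC on 1 strand or the other, and their shares among other coding genes were 0.387 and 0.553%. GGAGGAAA was found at 44 of the 65 genes, 4 of the 7 variant genes and 0 linker genes, and AAAGGGAG at 40, 0 and 0.

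Genes that supply or place histones, together with the centromeric H3 variant genes hcp-3 and cpar-1, were taken as a related list of 16. Of these, 10 had a pooled promoter peak (62.5%, exact 95% interval 35.4 to 84.8%), 8 had one among the 10000 highest and 7 had one in every replicate list. The histone genes hcp-3 and cpar-1, at ranks 7092 and 4317, are in the first and second of these counts, and hcp-3 is also in the third. The shares of other coding genes were 37.5, 18.2 and 14.4%, and the interval holds the first of these. The highest was at chaf-2, which encodes a subunit of chromatin assembly factor 1, the complex that places H3 and H4 behind the replication fork. Its pooled signal was 285, rank 159, with ranks of 302, 126 and 144 in replicates 1, 3 and 4, so all 3 replicates placed it near the top. The next were xnp-1, the worm ATRX gene, at 96.8, and lin-53, which encodes a histone-binding protein of several chromatin complexes, at 88.8. At spt-16, a subunit of the FACT histone chaperone, the signal was 60.5. The ranks of xnp-1 were 9544, 5142 and 1239. For lin-53 they were 1485 in replicate 1 and 934 in replicate 4, with no peak in replicate 3, and spt-16 was listed in replicate 4 alone, at rank 4099.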

How the data were processed

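ChIP-seq peak lists of 3 biological replicates were used as deposited, in ce11 coordinates per the labels. Per the deposited file listing, each replicate and the pool of replicates 1, 3 and 4 has a relaxed list called against 1 shared control alignment, and the optimal list was derived from the lists of replicates 3 and 4 and the pool. Aligner, caller and read length were not given in the sources used here. The signal of each peak is the authors' deposited value, and it served only for ranking and filtering inside each list. Read depth is unknown.

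Genes came from Ensembl release 115 and symbols and sequence from RefSeq (WBcel235). Symbols were matched by WBGene identifier, since 22 of the 82 members carry another name in Ensembl. The other coding genes include 12 mitochondrial ones. Each gene took its highest peak with a summit from 1000 bp upstream to 200 bp downstream of any 5′ end. Intervals are exact Clopper-Pearson intervals at 95% and cover counting error only. No test was run. Scripts (Python 3.11.15, numpy 2.4.6, scipy 1.17.1, matplotlib 3.10.9) were tested on simulated data.

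The members, lists and bounds were chosen with earlier results of these data known. The text names all linker and variant genes, the 15 histone genes with the highest pooled signal, the genes of the clusters with the highest and lowest summed signal, and 4 genes of the supply list. Other genes were named after their values were seen. Alternatives varied the window, the 5′ ends, the overlap rule, list depth, small RNA genes, unique sequence, shared peaks and replicates. The rule of the nearest 5′ end was added after seeing the data.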

Additional observations from a re-analysis of the deposited data

How the results depend on the processing

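Of 108 values from 9 results under 12 alternatives, 69 stayed near the reported value and 39 moved. A count was near within 1.5 times, and a median within its own exact 95% interval, which is narrow for the many other genes and wide for the 33 histone genes. With the 10000 highest peaks of each list, 21 histone genes and 3630 other genes had a pooled promoter peak, 14 clustered core genes had one, 11 histone genes had one in every replicate list, and the median signal of other genes was 61.9. Only 19 histone genes, 5 of them clustered core genes, were at least 90% unique, so with these alone counts fell while shares rose. The counts were 15 histone genes (78.9%) and 5 clustered core genes (100%), with 10 histone genes in every replicate list (52.6%). The median histone signal was 78.8. With peaks counted only for the nearest gene, the counts were 19 histone and 9 clustered core genes, with 7 histone genes in every replicate list. The median of other genes was then 44.5. This median of other genes was 44.6 with the window of 500 bp upstream to 100 bp downstream, where 10 histone genes had a peak in every replicate list. It was 46.2 with 2000 bp upstream to 500 bp downstream, 44.4 with the 5′ end of the full gene and 44.4 with each peak counted once.

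Leaving out each replicate was done as a stricter filter, in which a pooled peak needed a summit within 100 bp in both other lists, and reads of the replicate left out stayed in the pool. Counts then ranged from 11 to 13 histone genes, 1388 to 1930 other genes, 7 to 9 clustered core genes and 2 to 3 linker genes, and stood at 2 variant genes each time. Median signals ranged from 94.1 to 95.7 for histone genes and from 68.7 to 73.8 for other genes. The fall in counts follows from the construction of the filter. No paired analysis was possible because there is 1 group. With 3 replicates, relaxed lists and no depth, small differences between classes could not be resolved.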
